A study of Mus musculus with 8 samples.

Results

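The 31 genes described here encode proteins that copy DNA in the S phase of the cell cycle, and they are 31 of the 20738 named genes measured in these livers. They were taken by name: a gene belongs if its current symbol, or an older alias, is on the list of replication genes, and all 31 were found, through 39 features (spots) of the array. Each gene is represented by its brightest feature, the one with the highest mean log2 value over the 8 arrays. The livers came from male CD-1 mice, an outbred stock, fed for 7 days a control diet (0 ppm, 4 arrays) or a diet holding 2500 ppm NaPB, the sodium salt of phenobarbital (4 arrays). The labels give neither the age of the mice nor whether each array is a different animal, so the p-values measure the spread between these samples, which may be technical. The title of the series places the livers in work on whether phenobarbital makes hepatocytes enlarge or divide, and the comparison of the diets addresses the second of these for transcripts of DNA replication.

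Before S phase, the proteins Cdc6 and Cdt1 load the ring-shaped MCM helicase onto DNA at origins of replication. At the start of S phase, cyclin E with its kinase partner, Mcm10, Cdc45 and the GINS complex turn the loaded rings into moving helicases. Primase and the polymerases then copy each strand, with Pcna as the sliding clamp of the polymerases. Ribonucleotide reductase and thymidylate synthase supply deoxynucleotides, and the CAF-1 complex packs the new DNA into nucleosomes. Most hepatocytes of an adult liver are out of the cell cycle, and phenobarbital acts in mouse hepatocytes through the nuclear receptor CAR and is known to stimulate their growth.

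Genes of this set are known targets of the E2F transcription factors, so a window around each gene's start (250 bases before it and 50 after) was searched on both strands for TTTCCCGC and TTTGGCGC, which resemble E2F sites, and for CCAAT, the box bound by NF-Y. RefSeq windows (build GRCm38.p6) were matched for 26 of the 31 genes. An E2F-type motif was present for 9 of the 26 (34.6%): Cdc6, Cdt1, Dtl, Mcm3, Mcm5, Mcm6, Mcm7, Pola1 and Rfc3. Of all 27025 genes with a window, 1.80% held one. CCAAT was present for 16 of 26 genes (61.5%) and for 41.1% of all genes with a window. Some genes have several windows, and a gene counts once if any of them matches. A match describes letters, and binding was not measured. The 250 bases before the start are shown for the genes the results turn on: Rrm2 and Chaf1b, which were higher on the NaPB diet, Mcm10, which was lower, and Mcm6, which was called when 1 array was left out but not with all 8. They are written 5′ to 3′ along the gene, with motif matches in capitals (a match on the other strand reads as its reverse complement, ATTGG for CCAAT). The Rrm2 window is chr12:24708004-24708253 on the plus strand, that of Chaf1b is chr16:93883651-93883900 on the plus strand, that of Mcm10 is chr2:5012792-5013041 on the minus strand and that of Mcm6 is chr1:128359706-128359955 on the minus strand.
Rrm2: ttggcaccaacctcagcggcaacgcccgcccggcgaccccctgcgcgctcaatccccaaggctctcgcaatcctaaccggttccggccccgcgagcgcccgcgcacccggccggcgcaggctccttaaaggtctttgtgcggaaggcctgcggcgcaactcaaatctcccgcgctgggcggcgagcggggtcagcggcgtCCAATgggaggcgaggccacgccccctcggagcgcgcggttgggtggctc
Chaf1b: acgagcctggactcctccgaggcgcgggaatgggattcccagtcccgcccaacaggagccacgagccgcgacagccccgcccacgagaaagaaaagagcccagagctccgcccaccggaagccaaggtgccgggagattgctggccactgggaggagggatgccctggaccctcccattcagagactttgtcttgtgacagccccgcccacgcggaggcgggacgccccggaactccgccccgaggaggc
Mcm10: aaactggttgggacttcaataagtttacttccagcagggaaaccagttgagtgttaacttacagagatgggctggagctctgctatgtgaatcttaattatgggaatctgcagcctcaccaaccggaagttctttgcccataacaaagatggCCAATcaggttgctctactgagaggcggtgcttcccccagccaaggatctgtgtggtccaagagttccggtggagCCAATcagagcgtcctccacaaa
Mcm6: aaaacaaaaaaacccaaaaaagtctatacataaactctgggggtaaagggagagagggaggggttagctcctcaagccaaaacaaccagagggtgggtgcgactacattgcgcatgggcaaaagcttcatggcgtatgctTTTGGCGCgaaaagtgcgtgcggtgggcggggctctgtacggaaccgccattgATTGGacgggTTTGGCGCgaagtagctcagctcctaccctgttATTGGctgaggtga
The Mcm6 stretch holds 2 TTTGGCGC motifs and 2 CCAAT boxes. The Mcm10 stretch holds 2 CCAAT boxes (its full window holds 3) and the Rrm2 stretch holds 1, neither with an E2F-type motif. The Chaf1b stretch holds none of the 3 motifs.

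All values below are the authors' spot intensities on a linear scale, divided by a number near each array's 75th percentile, so that 1 lies near the 75th percentile of the features. Fold changes and differences are on the log2 scale, NaPB minus control, with the standard error of a limma fit over all genes, and a gene is called when its Benjamini-Hochberg adjusted p over all 20738 genes is below 0.05. An intensity up to 2 times the lowest value on its array is described as at the floor. Where 4 values of a diet are listed, they are replicates 1 to 4 in that order. Control replicate 1 and NaPB replicate 4 stood apart from the other arrays, with the lowest array weights (0.308 and 0.313, against 1.14 to 1.98), so a member's value is also given without one of them where its call, sign or size depended on it. NaPB replicate 2 was deposited at coarser precision, with 3443 distinct values against 62756 or more on the others. Its next deposited value lay up to 0.885% away at the 31 genes. Cyp2b10, the P450 gene classically induced by phenobarbital, lay between 430 and 521 on NaPB replicates 1 to 3 and at 77.7 on NaPB replicate 4, against 0.863 to 5.22 on the control diet. All 8 hepatocyte markers were detected above the floor, with summed intensities of 3178 to 5767 on the control and 1927 to 4094 on the NaPB arrays. Of the 8, 2 lay above 0 and 6 below in log2 fold change. Serpina1c made up most of the sum on every array. Alb (320 to 611 on the control, 109 to 281 on the NaPB arrays) and Apoa1 (322 to 589 and 181 to 233) were lower without overlap, and neither was called.

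On the NaPB diet 2 of the 31 replication genes rose, Rrm2 (7.11-fold) and Chaf1b (2.91-fold), 1 fell, Mcm10 (3.98-fold), and 28 did not pass the test. Over all genes tested, 0.391% were called higher and 0.617% lower. Of the 31 genes, 24 had a log2 fold change above 0, with a median of 0.39, against 51.2% of all genes and a median of 0.01. At an unadjusted limma p below 0.05, 6 genes were higher (Rrm2, Chaf1b, Cdt1, Mcm5, Ccne1 and Dtl) and 1 was lower (Mcm10), where the shares of all genes were 4.34% and 5.77%. Values on the 2 diets stayed apart, with no overlap, for 4 genes that were higher (Rrm2, Chaf1b, Fen1 and, within the precision of 1 array, Cdt1) and for Mcm10, against 2.72% of all genes higher and 4.31% lower without overlap. A higher level in whole liver can mean more RNA per cell or more cells of a type, and the 2 cannot be told apart in such samples.

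**Figure D1:**
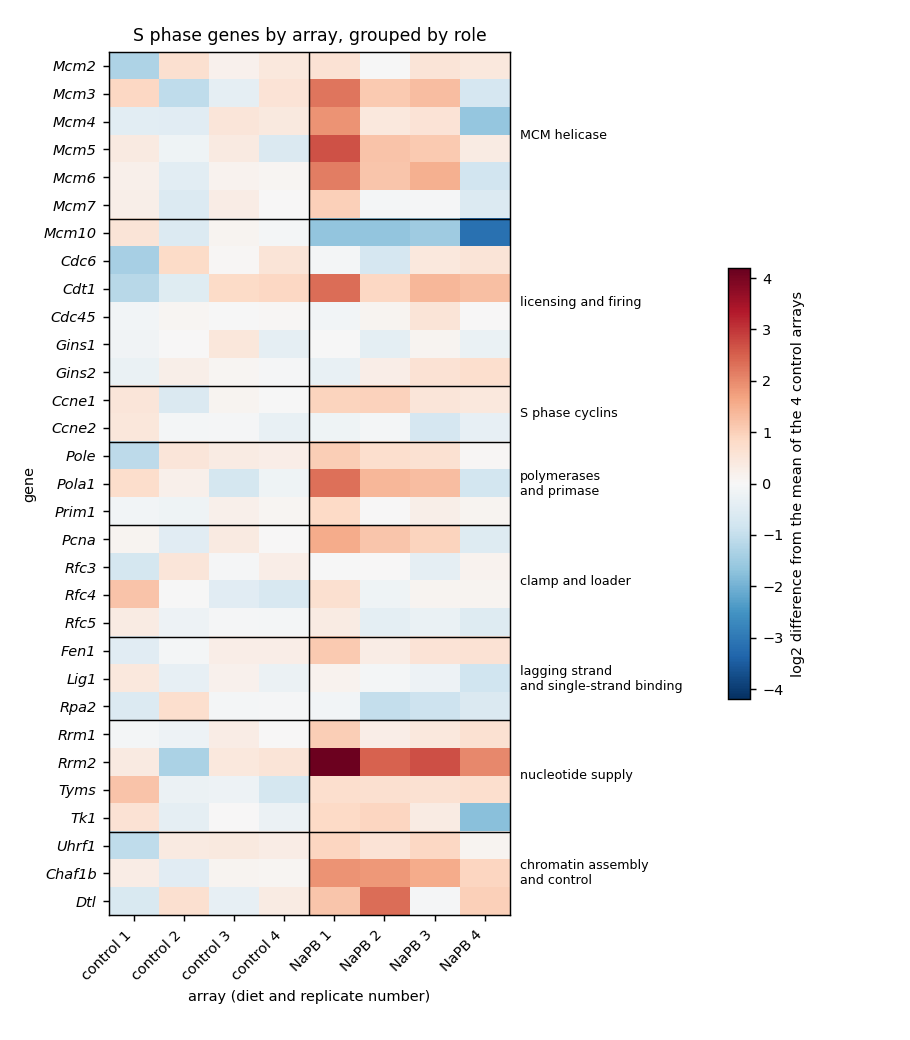
Log2 difference of each of the 31 genes (rows, by role) from its mean over the 4 control arrays, for each array (columns), red above and blue below that mean. Mcm3, Mcm6, Pola1 and Pcna are red on NaPB 1 to 3 and blue on NaPB 4, Rrm2 and Chaf1b are red on all 4 NaPB arrays, and Mcm10 is blue on all 4.

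The NaPB arrays differed among themselves. Relative to the control mean, the median log2 difference of the 31 genes was 0.92 on NaPB replicate 1, 0.30 on NaPB replicate 2, 0.53 on NaPB replicate 3 and 0.10 on NaPB replicate 4, while the single control arrays lay between −0.18 and 0.12. NaPB replicate 1 carried the highest of the 8 values for 15 genes, and NaPB replicate 4 the lowest of the 4 NaPB values for 16. Above the highest control array lay 18, 16, 17 and 7 genes on NaPB replicates 1 to 4, respectively, where the share of all genes ran from 21.3% to 24.4%. For 11 genes exactly 3 NaPB arrays exceeded every control array, and in 8 of these the array that did not was NaPB replicate 4. The shares of all genes for these counts, and for the highest and lowest arrays, were not computed. Without those shares, such counts cannot show whether the replication genes differ from other genes. Without NaPB replicate 4 the median was 0.65, 3 genes were called higher (Rrm2, Chaf1b and Mcm6) and 1 lower (Mcm10), beside 1.02% and 0.743% of all genes. Without control replicate 1 the median was 0.26, 22 of 31 genes lay above 0 and none was called by limma in either direction, beside 0.371% of all genes higher and 0.328% lower. Leaving out both arrays gave 4 higher, the fourth being Pola1, and 1 lower, beside 1.80% and 0.945% of all genes.

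Markers of other cells of the liver were read beside these values. The 8 Kupffer cell and macrophage markers summed to 24.8 to 29.0 on the control and 17.7 to 21.3 on the NaPB arrays, 1 lying above and 7 below 0 in log2 fold change, without overlap of the sums between the diets and with Timd4 at the floor on every array. Not one of these 8 was called, the smallest limma adjusted p being 0.082 for C1qa. The sums overlapped between the diets for the markers of T and NK cells (6 measured), B cells (3), endothelial cells (6), stellate cells (5), cholangiocytes (5) and erythroid cells (4). None of those genes was called by limma. Single genes made up most of some sums on every array, so those overlaps mainly describe these genes. They were Cd4 for T and NK cells, Cd79a for B cells, Kdr for endothelial cells and Hba-a1 for erythroid cells. The 4 measured neutrophil markers summed to 29.0 to 123 on the control and 72.9 to 187 on the NaPB arrays, 3 of 4 above 0, and S100a8 alone was called. On the control arrays Elane made up most of the neutrophil sum. S100a8 lay between 0.246 and 0.464 in the controls. It was 46.3, 126, 71.0 and 2.02 in NaPB replicates 1 to 4, lowest on NaPB replicate 4. S100a9 was instead highest on that array, at 2.76, 1.19, 1.41 and 6.63 in the same order. Elane and Mpo were lowest on NaPB replicate 2 among the NaPB arrays. The part of other cells in the replication genes was not tested.

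The 6 genes of the MCM helicase (Mcm2 to Mcm7), the motor that unwinds DNA at the fork, all had a log2 fold change above 0 (0.08 to 1.33, median 0.68), and none passed the test. Mcm6 was 1.14, 0.725, 1.08 and 1.04 in the controls and 4.34, 2.21, 2.78 and 0.563 in the NaPB group. Thus 3 NaPB arrays exceeded every control array and the remaining one was the lowest of all 8. The log2 fold change of Mcm6 was 1.00 ± 0.54 with all arrays (limma adjusted p = 0.61) and 1.61 ± 0.31 without NaPB replicate 4 (limma adjusted p = 0.0394). Mcm5 lay at 0.0803, 0.0544, 0.0796 and 0.0406 on the control arrays, all at the floor, and at 0.392, 0.142, 0.132 and 0.0775 on NaPB replicates 1 to 4. The geometric mean of its NaPB arrays was 1.83 times that of the floor limits of the control arrays (2 times each array's lowest value). That comparison carries no standard error and sets no lower bound on the change of Mcm5. The fitted difference of 1.33 ± 0.47 was not called (limma adjusted p = 0.31), and NaPB replicate 4 lay within the control range. Mcm7 lay between 0.942 and 1.74 on the control diet and at 2.83, 1.33, 1.35 and 0.946 on NaPB replicates 1 to 4. Its diets overlapped except for NaPB replicate 1, and its difference was 0.08 ± 0.37. Mcm3 (0.97 ± 0.61), Mcm2 (0.39 ± 0.41) and Mcm4 (0.32 ± 0.62) were not called either. Without NaPB replicate 4 the differences were 1.54 for Mcm3, 0.97 for Mcm4 and 0.29 for Mcm7, and without control replicate 1 they were 0.17 for Mcm4, 0.16 for Mcm7 and −0.04 for Mcm2, none of them called. The median of the helicase genes on single NaPB arrays was 2.02, 0.77, 0.83 and −0.64 log2 units from the control mean. Without NaPB replicate 4 the median fold change was 1.25, without control replicate 1 it was 0.62, with 5 of 6 genes above 0, and without NaPB replicate 1 it was 0.44, with 4 of 6 genes above 0.

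The genes that license and fire origins went in different directions. Mcm10, which joins the loaded helicase and helps to start the fork, fell: it measured 9.27, 4.27, 6.94 and 5.99 under the control diet against 2.00, 2.00, 2.26 and 0.727 under NaPB. Every NaPB array was below every control array. The geometric means were 6.37 (log2 SD 0.46, n = 4) and 1.60 (log2 SD 0.76, n = 4), and the log2 fold change was −1.99 ± 0.40 (limma adjusted p = 0.0487). The array carries 1 named feature for Mcm10. No probe sequences were given, so whether this feature reads Mcm10 transcripts could not be checked. On the control diet it lay 4.50 log2 units above the mean of Mcm2 to Mcm7. Cdt1, the loader of the MCM ring, had control values of 0.0716, 0.112, 0.280 and 0.295 and NaPB values of 0.823, 0.295, 0.422 and 0.383. The lowest NaPB array (0.295291, NaPB replicate 2) exceeded the highest control array (0.294507) by less than the step of 0.00151 between deposited values there, so this separation is within the precision of that array. The difference of 1.47 ± 0.50 did not pass (limma adjusted p = 0.287). Control replicate 1 was at the floor for Cdt1, and without it the difference was 1.09 ± 0.45 (limma adjusted p = 0.416). Cdc6, its partner in loading (0.04 ± 0.48), Cdc45 (0.14 ± 0.25) and the GINS subunits Gins2 (0.32 ± 0.30) and Gins1 (−0.14 ± 0.28) were not called. Cdc6 changed sign without control replicate 1 (−0.42) and without NaPB replicate 4 (−0.12), and Gins2 was 0.19 without the latter. The 95% interval of Cdc45, from −0.42 to 0.70, was the narrowest of this group.

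Of the cyclin E genes, which drive entry into S phase, Ccne1 stood at 0.309, 0.141, 0.235 and 0.213 without NaPB and at 0.412, 0.422, 0.310 and 0.292 with it. The lowest NaPB array lay just under the highest control array, and the difference of 0.71 ± 0.30 was not called (limma adjusted p = 0.455). The second feature of Ccne1 and the single feature of Ccne2 were at the floor on every array, so Ccne2 has no fold change here.

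**Figure D2:**
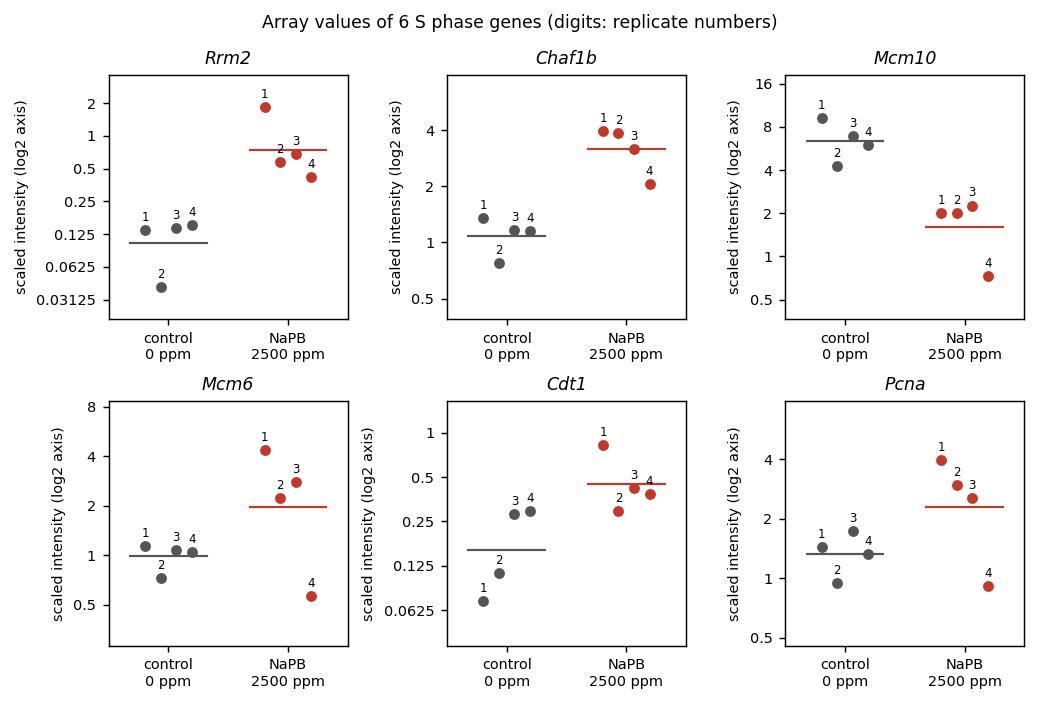
Scaled intensity (log2 axis) of Rrm2, Chaf1b, Mcm10, Mcm6, Cdt1 and Pcna on each of the 4 control and 4 NaPB arrays. Points are arrays, digits are replicate numbers and lines are geometric means. Rrm2, Chaf1b and Mcm10 show no overlap between the diets, the lowest NaPB array of Cdt1 sits level with its highest control, and for Mcm6 and Pcna NaPB replicate 4 lies below every control array.

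The 3 genes of the polymerases and primase were above 0 and not called. Pole, the catalytic subunit of the leading-strand polymerase, was 0.237, 0.722, 0.645 and 0.623 in the controls and 1.05, 0.837, 0.807 and 0.531 in the NaPB group. The difference was 0.61 ± 0.39, and its other 2 features gave 0.17 and −0.16, so the features of this gene disagreed in sign. Without control replicate 1 the brightest feature gave 0.24. Pola1, of the polymerase that extends the primers, differed by 1.07 ± 0.59 (limma adjusted p = 0.626). It lay at 0.398, 0.210 and 0.196 on NaPB replicates 1 to 3 and at the floor (0.0467) on NaPB replicate 4, against 0.0473 to 0.132 on the control arrays. Without NaPB replicate 4 the difference of Pola1 was 1.68 ± 0.40 (limma adjusted p = 0.0893), and without control replicate 1 as well it was 1.92 ± 0.36 (limma adjusted p = 0.0401). Without NaPB replicate 1 it was 0.65 ± 0.56 (limma adjusted p = 0.827). Prim1, the primase, differed by 0.30 ± 0.27.

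Pcna, the sliding clamp and a widely used marker of S phase, measured 1.44, 0.946, 1.73 and 1.33 under the control diet against 3.95, 2.95, 2.56 and 0.911 under NaPB. This is the arrangement of Mcm6, with 3 NaPB arrays above and 1 below all control arrays, and the difference of 0.78 ± 0.43 was not called (limma adjusted p = 0.634). Without NaPB replicate 4 it was 1.22 ± 0.29, also not called (limma adjusted p = 0.0874). Without NaPB replicate 1 it was 0.52 ± 0.44 (limma adjusted p = 0.826). None of the 3 genes of the clamp loader, which opens the Pcna ring, was called. Rfc4 had control values of 5.63, 2.41, 1.75 and 1.54 and NaPB values of 3.96, 2.17, 2.68 and 2.65, all NaPB values inside a control range whose top is control replicate 1. Its difference was 0.18 ± 0.41 (95% interval −0.72 to 1.09), −0.18 by its other feature, and 0.58 ± 0.30 without control replicate 1, where 3 of 4 NaPB arrays exceed the remaining controls. Rfc3 differed by −0.06 ± 0.31 (−0.31 without control replicate 1 and −0.13 without NaPB replicate 4). Rfc5 differed by −0.22 ± 0.28 (95% interval −0.85 to 0.40), with −0.11 and −0.12 in the same order.

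Among the genes that finish the lagging strand and cover single strands, Fen1, which trims the flaps of Okazaki fragments, stood at 0.520, 0.683, 0.861 and 0.868 without NaPB and at 1.54, 0.884, 1.06 and 1.09 with it. The diets did not overlap, by a narrow margin, and the difference of 0.64 ± 0.29 was not called (limma adjusted p = 0.496). Lig1, the ligase that seals the fragments, lay between 3.48 and 6.02 on the control diet and at 4.93, 4.21, 3.86 and 2.52 on NaPB replicates 1 to 4, a difference of −0.25 ± 0.31 (−0.05 without NaPB replicate 4 and −0.10 without control replicate 1). Rpa2, a subunit of the single-strand binding protein RPA, had a difference of −0.65 ± 0.33 (limma adjusted p = 0.59), with 3 NaPB arrays below every control array.

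All 4 genes of nucleotide supply were above 0, and 1 rose. Rrm2, the small subunit of ribonucleotide reductase, whose level is known to limit the enzyme outside S phase, was 0.135, 0.0413, 0.141 and 0.151 in the controls and 1.83, 0.578, 0.686 and 0.420 in the NaPB group. Every NaPB array exceeded every control array, and control replicate 2 was at the floor. The geometric means were 0.104 (log2 SD 0.90, n = 4) and 0.743 (log2 SD 0.91, n = 4), and the log2 fold change was 2.83 ± 0.53 (limma adjusted p = 0.0357). Rrm1, the large subunit, measured 0.358, 0.327, 0.470 and 0.390 under the control diet against 0.782, 0.462, 0.517 and 0.602 under NaPB, a difference of 0.60 ± 0.27 that was not called (limma adjusted p = 0.499). Tyms, thymidylate synthase, lay between 0.908 and 0.948 on all 4 NaPB arrays. Its control arrays were at 1.34, 0.491, 0.502 and 0.354, so control replicate 1 alone lay above the NaPB arrays, and the difference was 0.68 ± 0.38 (1.07 without control replicate 1). Tk1, thymidine kinase, had control values of 2.97, 1.53, 2.01 and 1.66 and NaPB values of 3.53, 3.71, 2.50 and 0.591, a difference of 0.09 ± 0.54, which was 0.70 without NaPB replicate 4 and 0.29 without control replicate 1.

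The 3 genes of chromatin assembly and its control were above 0, and 1 rose. Chaf1b, a subunit of the CAF-1 histone chaperone, stood at 1.35, 0.773, 1.16 and 1.15 without NaPB and at 3.98, 3.85, 3.19 and 2.05 with it. No array of one diet reached the range of the other, and the same held for its second feature (0.551 to 0.873 against 1.06 to 2.16). The log2 fold change was 1.54 ± 0.31 (limma adjusted p = 0.0471), and 1.30 by the second feature. Dtl, which directs Cdt1 to degradation in S phase, was 0.0715, 0.177, 0.0885 and 0.142 in the controls and 0.252, 0.568, 0.107 and 0.225 in the NaPB group. The difference was 1.11 ± 0.49 (limma adjusted p = 0.474). Control replicate 1 was at the floor for Dtl, and without that array the difference was 0.89 ± 0.51. Uhrf1, which brings the maintenance DNA methyltransferase to new DNA, differed by 0.61 ± 0.38 by its brightest feature (0.26 without control replicate 1) and by −0.49 by its other one.

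Rrm2, Chaf1b and Mcm10 lost their call whenever 1 array other than NaPB replicate 4 was left out, and kept it without NaPB replicate 4 (limma adjusted p = 0.03, 0.019 and 0.0348). Over the 8 fits that each left out 1 array, the adjusted p of limma reached 0.0964 for Rrm2, 0.156 for Chaf1b and 0.144 for Mcm10. Their log2 fold changes in those fits ran from 2.38 to 3.10 for Rrm2, from 1.38 to 1.75 for Chaf1b and from −2.18 to −1.61 for Mcm10.

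**Figure D3:**
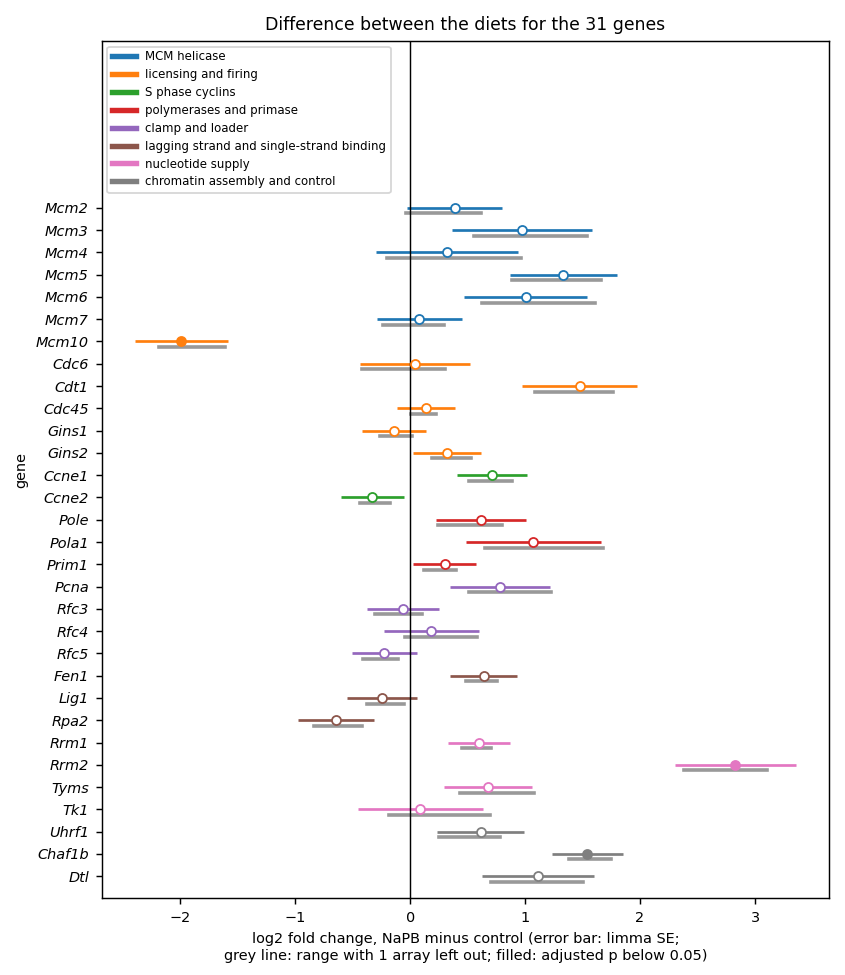
Log2 fold change of the 31 genes, NaPB minus control, coloured by role, with limma standard errors (coloured bars) and the range over the 8 fits with 1 array left out (grey). Filled points, Rrm2 and Chaf1b to the right and Mcm10 to the left, passed at an adjusted p below 0.05.

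Members of 1 complex or step were set against each other within each array, where the scaling of the array cancels, in 5 pairs, with an exact two-sided permutation test over the 70 ways of choosing 4 of 8 arrays and Benjamini-Hochberg adjustment over the pairs. The smallest p this design allows is 0.0286. The pairs were chosen with the separation of the diets for Rrm2, Chaf1b and Mcm10 known, so these p-values partly restate it and are no independent evidence. Rrm2 minus Rrm1 was −1.87 ± 0.76 (SD, n = 4) on the control and 0.36 ± 0.71 (SD, n = 4) on the NaPB diet, a change of 2.23 ± 0.52 (SE; exact p = 0.0286, adjusted p = 0.0357). Mcm10 minus the mean of Mcm2 to Mcm7 changed by −2.68 ± 0.32 (SE; exact permutation p = 0.0286, adjusted p = 0.0357), from 4.50 ± 0.37 to 1.82 ± 0.53 (SD, n = 4 each). Chaf1b minus Chaf1a, the gene of the large CAF-1 subunit, changed by 1.72 ± 0.43 (SE; exact permutation p = 0.0286, adjusted p = 0.0357), from 0.70 ± 0.76 to 2.42 ± 0.38 (SD, n = 4 each). Cdt1 minus Gmnn, the gene of its inhibitor geminin, changed by 1.16 ± 0.67 (SE), which did not pass (exact permutation p = 0.2, adjusted p = 0.2). This value rests on the brightest Gmnn feature, whose log2 fold change was 0.32, against 1.73 for its other feature. Ccne1 minus Ccne2 changed by 1.04 ± 0.20 (SE; exact permutation p = 0.0286, adjusted p = 0.0357), but Ccne2 was at the floor on every array and this value is no ratio of the 2 genes. The call of Rrm2 against Rrm1 was lost without control replicate 2, where Rrm2 was at the floor (1.86, adjusted exact p = 0.0714), and that of Chaf1b against Chaf1a without any 1 NaPB array (1.62 to 1.90, adjusted exact p = 0.0714).

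**Figure D4:**
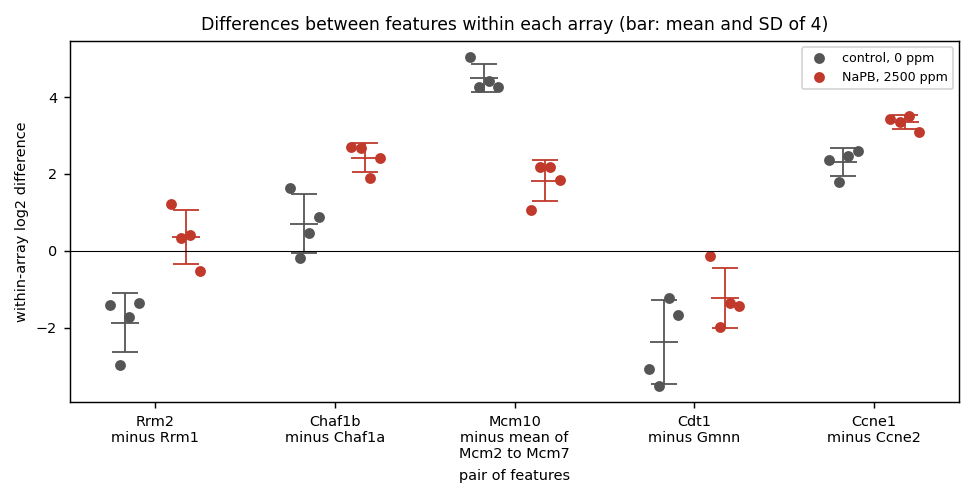
Within-array log2 difference between the features of 5 pairs, for each control (grey) and NaPB (red) array, with the mean and SD of 4 arrays as bars. The diets separate for Rrm2 minus Rrm1, Chaf1b minus Chaf1a, Mcm10 minus the MCM mean and Ccne1 minus Ccne2, and overlap for Cdt1 minus Gmnn.

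Of 71 other genes of replication and its control, a list that adds origin recognition, further polymerase subunits, histone chaperones, the E2F and pocket protein families and cell cycle inhibitors, 70 were measured. None was called by limma. Of the 70, 41 (58.6%) lay above 0 with a median of 0.08, against 51.2% of all genes, and 9 (12.9%) had an unadjusted p below 0.05 (5 higher, 4 lower), against 10.1% of all genes. These shares are near the background, and the genes named next are those with the smallest p on the list. Cks1b, a cofactor of cyclin-dependent kinases, measured 0.339, 0.291, 0.464 and 0.417 under the control diet against 1.14, 0.998, 1.32 and 0.556 under NaPB. The difference was 1.36 ± 0.33 (limma adjusted p = 0.0946, and 0.0225 without NaPB replicate 4). In the fits that each left out 1 array the limma adjusted p of Cks1b reached 0.275. Asf1b, a histone chaperone that hands histones to CAF-1, differed by 1.25 ± 0.35 (limma adjusted p = 0.163) and Pole4, a small subunit of the leading-strand polymerase, by 0.91 ± 0.27 (limma adjusted p = 0.191), neither with overlap between the diets. Dnmt1, the maintenance methyltransferase that Uhrf1 recruits, was in the other direction, at 1.93, 1.70, 1.45 and 1.53 on the control and 0.741, 0.751, 0.804 and 0.951 on the NaPB arrays, a difference of −1.02 ± 0.25 (limma adjusted p = 0.0955).

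E2f2, a transcription factor of the activating E2F class, had the arrangement of Mcm6 and Pcna. It ran from 0.257 to 0.415 in the controls, at 5.39, 3.48 and 2.67 on NaPB replicates 1 to 3 and at 0.196 on NaPB replicate 4. Its difference was 2.52 ± 0.85 with all arrays (limma adjusted p = 0.279) and 3.58 without NaPB replicate 4 (limma adjusted p = 0.00148). In the fits that each left out 1 array it ran from 1.99 to 3.58, and the limma adjusted p reached 0.563. E2f1, the best known member of that class, differed by 0.02 ± 0.27 and E2f8, a repressor, by −0.94 ± 0.44. The remaining genes with the smallest p were Gins3 (0.87 ± 0.32), Orc1 of the origin recognition complex (−1.18 ± 0.45, with 3 NaPB arrays at the floor), the kinase Cdk2 (−0.96 ± 0.38), Rnaseh2a (−0.63 ± 0.27, its 4 features between −0.63 and 0.22), Ccna2, which encodes cyclin A (1.09 ± 0.50, with 2 control arrays at the floor), and Orc3 (0.66 ± 0.32 and −0.31 by its other feature). The proliferation marker Mki67 had control values of 0.410, 0.949, 0.929 and 1.07 and NaPB values of 1.87, 0.438, 1.41 and 1.41, with overlap, and differed by 0.52 ± 0.48 (1.38 by its other feature). Gmnn (0.32 ± 0.30, and 1.73 by its other feature) and Chaf1a (−0.18 ± 0.34) were not called. Nor was the cell cycle inhibitor Cdkn1a (0.08 ± 0.88, its 12 features between −0.59 and 0.44). Top2a, a topoisomerase of dividing cells, was at the floor in all 4 controls and in 2 NaPB arrays. Rrm2b, the p53-induced form of the small reductase subunit, lay between 0.0608 and 0.394 on 7 arrays and at 7.61 on control replicate 2.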

How the data were processed

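Total RNA of 8 liver samples was labelled with Cy3 and hybridised to one-colour Agilent arrays, per the labels' protocols; the scans were quantified with Agilent Feature Extraction 10.7, per the submitters' processing notes. The deposited values are intensities on a linear scale, and the authors had divided them by a number near each array's 75th percentile (0.952 to 0.974). How background and flagged spots were handled is not given in the sources used here, and the number of arrays limits the precision. Of 62976 features, 31465 carried 1 gene symbol, none several and 31511 none, in a platform annotation updated through RefSeq (GRCm38.p6, names only); 3282 symbols changed.

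The log2 values, without pseudocount or filter, were fitted with diet as the only term in limma 3.58.1 (R 4.3.3; lmFit and eBayes, two-sided), with Benjamini-Hochberg adjustment over 20738 genes. Replicate numbers were not used as a block: deviations of same-numbered arrays correlated at 0.23, −0.29, 0.04 and 0.23. Values on each array are given for members with an adjusted p below 0.05 in any fit with at most 1 array left out, diets without overlap or an unadjusted p below 0.05, for the brightest of each role (14 genes in all), and for Pcna, Pola1, Rrm1 and Tyms, added after their values were seen; of the other replication genes, the 12 with the smallest p and 7 index genes are named. The members, lists and pairs were chosen with earlier results of these data known. Alternatives are in the closing section. Figures were drawn with Python 3.11.15 and matplotlib 3.10.9.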

Additional observations from a re-analysis of the deposited data

Results flagged for a closer look

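In 64 groups of 4 arrays (each gene, and the median of the 31 genes, on each diet), 1 array lay apart from its group in 4, where chance gives about 1 in 20. The gap to the nearest array was 0.891 of the group's range for Mcm10 on the NaPB diet, where NaPB replicate 4 was lowest at 0.727. For Rrm2 on the control diet it was 0.913, control replicate 2 being lowest at 0.0413. Control replicate 1 was lowest for Pole on the control diet (0.867 of the range, at 0.237) and for Uhrf1 on the control diet (0.943 of the range, at 0.0962). What sets these arrays apart was not tested.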

How the results depend on the processing

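The median log2 fold change of the 31 genes stayed above 0 in all 17 alternatives, from 0.14 with a pseudocount of 1 to 0.65 without NaPB replicate 4. The sign was kept in every alternative for 21 genes and changed in at least 1 for Ccne2, Cdc6, Gins1, Lig1, Mcm2, Mcm4, Mcm7, Rfc3, Rfc4 and Tk1, none of them called. Calls depended on the setting. Quantile normalization called 1 member higher (Chaf1b) and 1 lower, and 251 genes lower in all. With every array shifted to the same median, and with features averaged per gene, 1 was higher (Rrm2) and 0 lower; a pseudocount of 1 gave 0 and 0 (limma, with 6 and 1 at an unadjusted p below 0.05). Leaving out dim genes kept 14 members, with 1 called higher (Chaf1b), 1 lower (Mcm10) and 11 above 0. Array weights called 4 members higher (Rrm2, Chaf1b, Mcm5 and Pola1) and 1 lower (Mcm10), with 458 genes higher and 354 lower in all. Without control replicate 1 and NaPB replicate 4 together, 4 members were called higher and 1 lower (Mcm10), with 374 genes higher and 196 lower in all. With the replicate block, 1 member was higher (Rrm2) and 0 lower, and 77 genes lower in all; the numbers pair nothing in the labels, and 2 of 8 arrays correlated best with their own number. With 1 array left out, 0 to 3 members were called higher and 0 to 1 lower, with 36 to 211 genes higher and 48 to 154 lower in all. The within-array differences then ran from 1.86 to 2.53 for Rrm2 minus Rrm1 and from 1.43 to 2.03 for Chaf1b minus Chaf1a. With 3 arrays per diet the exact test cannot pass, and they were 2.68 for Rrm2, 2.04 for Chaf1b, −2.50 for Mcm10 and 1.15 for Ccne1 without control replicate 1 and NaPB replicate 4. Quantile normalization gave 0.70 for Ccne1 minus Ccne2 (adjusted exact p = 0.143). The causes were not tested. Members at the floor on some arrays (9 of 31 genes) have fold changes that depend on values near background.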
